A study of Mus musculus with 14 samples.

Results

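The cells that infiltrate a rejecting heart graft were compared with blood mononuclear cells of mice that received no graft. Allogeneic graft-infiltrating lymphocytes (GIL) came from BALB/c hearts transplanted to an ectopic site in C57BL/6 recipients, were taken on day 5, and are labelled as rejecting. Blood mononuclear cells (PBMC, called PBLs in the protocol) came from normal C57BL/6 mice. A further group, syngeneic GIL of day 5, came from C57BL/6 hearts in C57BL/6 recipients, labelled as not rejecting, and is used here for reference. All mice were 8 to 10 weeks old. Each array held RNA pooled from 3 animals, 100 ng from each, and there were 3 allogeneic pools, 3 syngeneic pools and 1 PBMC pool. The contrast with PBMC therefore has n = 3 pools against 1 pool, and neither the differences among animals within a pool nor the spread among PBMC pools can be seen. The allogeneic hearts were BALB/c and the blood C57BL/6, so cells of the donor heart that remained among the GIL differ from the blood cells in strain as well. How the GIL and the PBMC were isolated was not given in the sources used here.

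MicroRNA levels were read on TaqMan rodent microRNA cards, plates whose wells each carry a PCR assay of their own for a single small RNA. The threshold cycle (Ct) is the cycle at which the signal crosses a set brightness, and 1 cycle earlier is about a doubling of the RNA. A well was detected when its Ct was under 35. The members studied are the microRNA assays detected on all 3 allogeneic arrays or on the PBMC array, 212 of the 375 on the card (201 with mouse names and 11 with rat names), on 4 of the 14 arrays of the series. Of these, 144 were detected on all 4 arrays. Another 15 were detected on the 3 allogeneic arrays and not in PBMC. The remaining 53 were detected in PBMC but on 2 (26 assays), 1 (9) or 0 (18) of the allogeneic arrays. Levels are given on a log2 scale as the number of cycles by which an assay came up before the mean of 137 reference assays of the same array, those detected on all 7 GIL and PBMC arrays. Undetected wells were placed at Ct 35, so a difference that involves one is a bound.

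As background, a microRNA is a short RNA that guides the silencing complex to messenger RNAs, mostly through its seed, the stretch of bases 2 to 8. Several microRNAs mark the cells that make them. miR-142 is made in blood cells, miR-150 in resting mature lymphocytes, miR-223 in granulocytes and monocytes, and miR-155 in activated lymphocytes and macrophages. Heart muscle makes miR-1 and miR-133a, smooth muscle miR-143 and miR-145, and endothelium miR-126. In acute rejection, recipient T cells and macrophages enter the graft, where they lie among muscle, vessel and connective tissue cells.

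The mature sequences below, from RefSeq on GRCm38.p6, are those of the assays on which the results turn, with the seed in capitals. RefSeq tables matched 103 of 114 assays looked up by name. The first set rose in allogeneic GIL.
miR-155: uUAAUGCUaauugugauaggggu
miR-182: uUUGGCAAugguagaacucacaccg
miR-183: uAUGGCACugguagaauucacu
miR-126-3p: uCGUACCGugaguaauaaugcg
miR-199a-3p: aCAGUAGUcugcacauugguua
miR-214: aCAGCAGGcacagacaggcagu
miR-127: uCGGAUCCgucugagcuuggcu
miR-379: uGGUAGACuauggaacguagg
miR-411: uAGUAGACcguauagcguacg
miR-27b: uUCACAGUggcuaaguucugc

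The second set was lower in allogeneic GIL than in PBMC.
miR-142-3p: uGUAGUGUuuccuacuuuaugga
miR-223: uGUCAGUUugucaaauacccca
miR-191: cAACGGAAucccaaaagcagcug
miR-130a: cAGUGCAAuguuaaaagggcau
miR-128a: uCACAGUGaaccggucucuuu
miR-98: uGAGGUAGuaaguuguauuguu

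The third set is of microRNAs that share a seed, shown because some of them went the same way and others did not. miR-221 and miR-222 have the seed GCUACAU, miR-204 and miR-211 UCCCUUU, miR-125b-5p, miR-125a-5p and miR-351 CCCUGAG, and miR-7a and miR-7b GGAAGAC.
miR-221: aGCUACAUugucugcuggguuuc
miR-222: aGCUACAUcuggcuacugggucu
miR-204: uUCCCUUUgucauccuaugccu
miR-211: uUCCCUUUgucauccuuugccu
miR-125b-5p: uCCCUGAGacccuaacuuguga
miR-125a-5p: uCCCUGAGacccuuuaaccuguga
miR-351: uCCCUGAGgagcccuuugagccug
miR-7a: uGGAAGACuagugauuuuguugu
miR-7b: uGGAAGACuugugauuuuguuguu

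Several of these lie side by side in the genome. In GRCm38.p6 mature miR-182 lies at chr6:30165962-30165986 and miR-183 at chr6:30169711-30169732, both on the minus strand. miR-127 lies at chr12:109592888-109592909, miR-379 at chr12:109709065-109709085 and miR-411 at chr12:109710190-109710210, all on the plus strand of the imprinted Dlk1-Dio3 region. miR-221 lies at chrX:19146307-19146329 and miR-222 at chrX:19146901-19146923, on the minus strand. miR-214 lies at chr1:162223438-162223459 and 1 of the 2 loci of miR-199a-3p at chr1:162217883-162217904, on the plus strand. miR-155 lies at chr16:84714143-84714165, miR-142-3p at chr11:87756903-87756925 and miR-223 at chrX:96242884-96242905, on the plus strand.

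The arrays differed in depth, which bears on every value below. Of the 375 microRNA assays, 213, 208 and 161 were detected in allogeneic pools 1 to 3, 204 to 221 in the syngeneic pools and 197 in PBMC. The mean Ct of the reference assays was 24.1, 25.0 and 28.0 in the allogeneic pools and 23.2 in PBMC. Allogeneic pool 3 also stood apart in its Ct values, of which 108 of 164 (65.9%) lay within 0.1 cycle of a whole cycle, against 27.8 to 36.5% on the other 6 arrays. All 26 members seen in PBMC and in allogeneic pools 1 and 2 but not in all 3 pools were missed in pool 3. Without this pool, 47 of the 47 rises and 73 of the 76 falls reported below were still called. By the run times in the files, the PBMC array was run on a day of its own, so group and run day cannot be told apart. Because PBMC is a single array, limma assumed that it varies like the GIL pools. An exact permutation test of a single assay, 3 arrays against 1, cannot reach a p under 0.05.

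Allogeneic GIL differed from PBMC in many members, the number of which depended on the scale. Of 212 assays on the reference scale, 47 were called higher (22.2%) and 76 lower (35.8%) at an adjusted p under 0.05, 58.0% in all, and 121 of the 123 called differed by more than 2-fold. An unadjusted p under 0.05 was reached by 136. Among the 144 assays detected on all 4 arrays, 28 were higher and 64 lower (63.9% called). In 137 of the 144 (95.1%) the 3 allogeneic values lay all above (47) or all below (90) the PBMC value, which held for 89.6% of all 212. Under the other 7 scalings 62 to 98 of the 212 were called. All 15 assays not detected in PBMC were called higher, and 8 of the 18 undetected on the allogeneic arrays were called lower. Both kinds are members only through the side on which they were detected, so their selection favours these calls, and they are given below as bounds without a p. Of the 53 detected in PBMC and missed on at least 1 allogeneic array, 4 were called higher and 12 lower. The median difference was -1.19 log2 units over the 212 members and -1.06 over the 144. The rises were the wider of the calls, reaching 10.89 log2 units among the 144, where the falls reached -5.41.

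**Figure D1:**
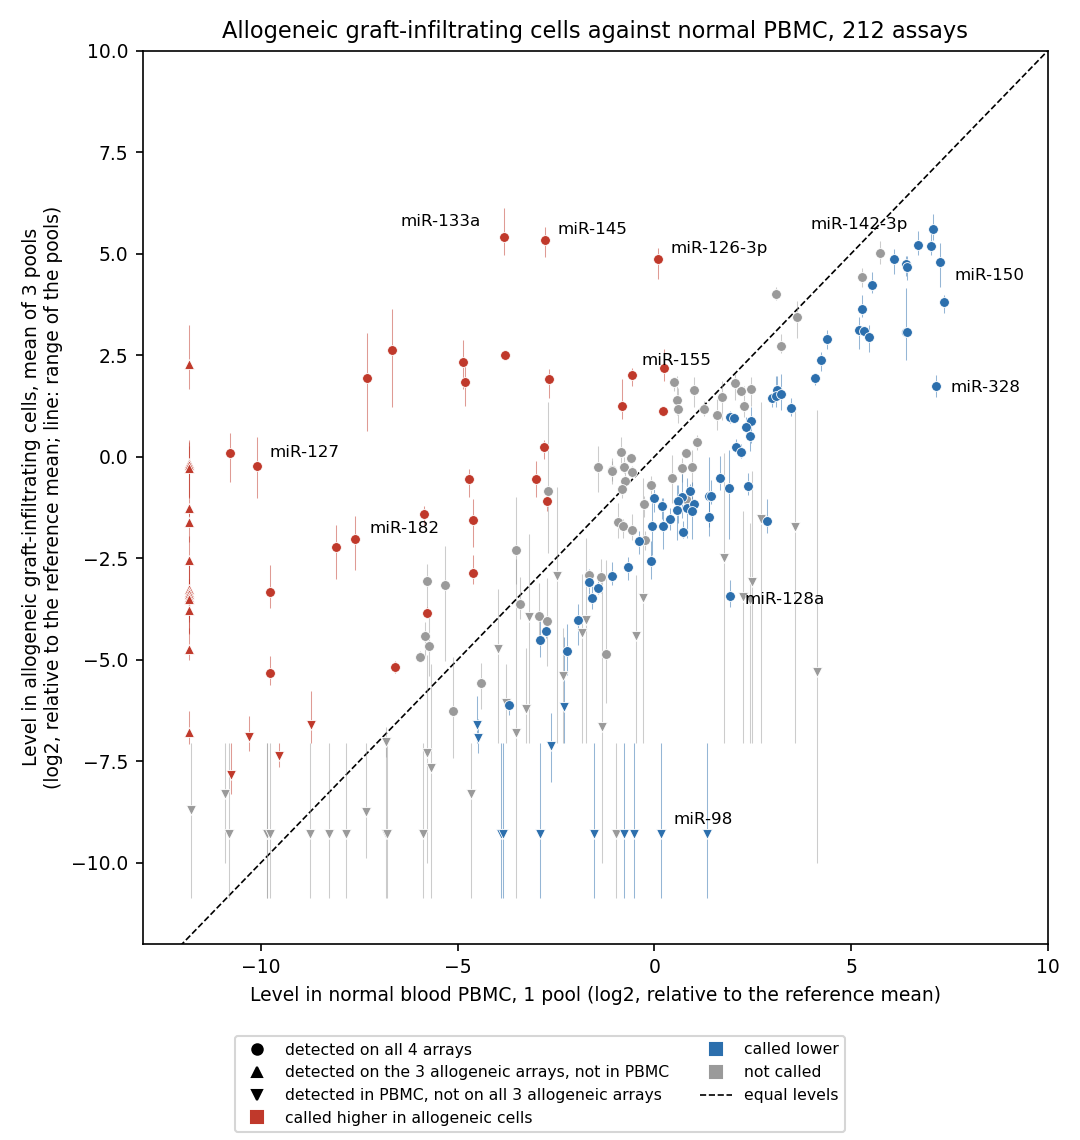
Mean level of each of 212 microRNA assays in 3 allogeneic GIL pools (vertical axis, log2, lines show the range of the pools) against its level in 1 PBMC pool (horizontal axis, log2); shapes give detection and colours the call. Muscle and endothelial microRNAs such as miR-133a, miR-145 and miR-126-3p lie far above the dashed line of equal levels, while most other assays lie a little below it and miR-328 and miR-128a lie well below.

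The number of falls depended on what the arrays were scaled to. The reference mean used here gave 47 higher and 76 lower. Scaling to the small nuclear RNA MammU6 gave 37 and 54, quantile normalization 38 and 56, and the median of the reference assays 52 and 46. Scaling to snoRNA135 with snoRNA202 gave 49 and 13, and to snoRNA202 alone, which the deposited relative quantities use, 54 and 9. A pair of scalings was added after the data were seen. Leaving muscle, endothelial, fibroblast and Dlk1-Dio3 assays out of the reference gave 57 and 27, and scaling to the blood cell microRNA miR-142 gave 62 and 10. These scalings moved the median of all members by -0.27 to 1.75 log2 units. Under all 8 scalings 33 of the rises were called (19 of them detected on all 4 arrays), but only 9 of the falls (4 on all 4 arrays). Under at least 1 scaling, 5 of the rises and 26 of the falls changed sign. The controls themselves differed, snoRNA202 standing 1.36, snoRNA135 0.61 and Y1 1.52 lower in allogeneic GIL, and MammU6 0.27 and U87 0.42 higher, on the reference scale.

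**Figure D2:**
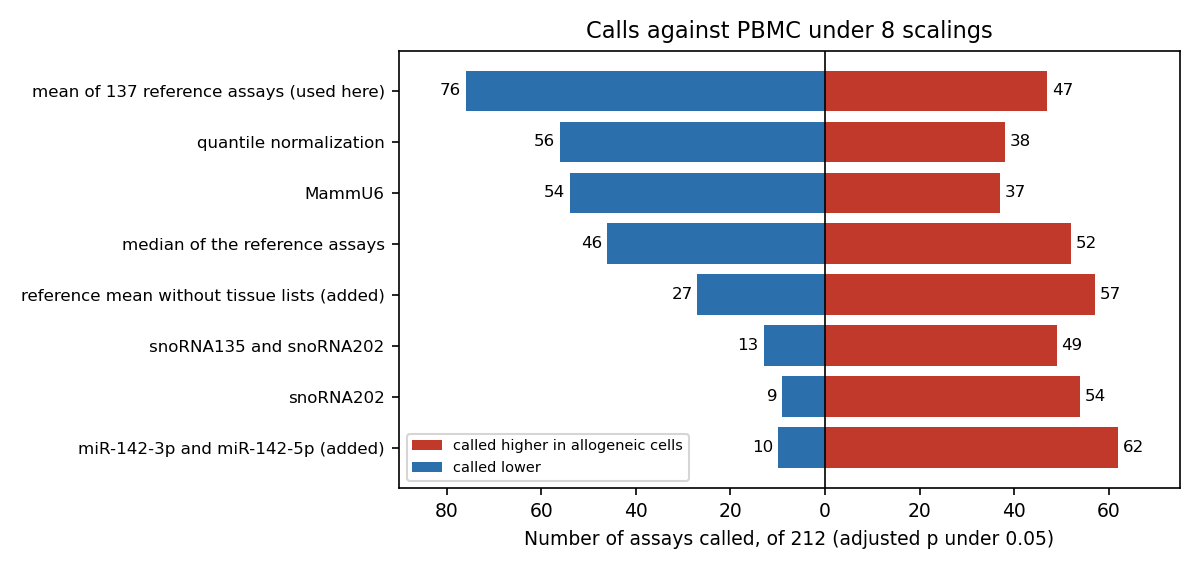
Number of assays called higher (right, red) and lower (left, blue) in allogeneic GIL than in PBMC under each of 8 scalings, of 212 assays. The count called higher stays between 37 and 62, while the count called lower runs from 9 to 76.

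Heart muscle microRNAs were among the largest rises. miR-133a, which restrains growth and cell division of muscle cells, stood at 4.97, 6.12 and 5.16 in allogeneic pools 1 to 3 and at -3.81 in PBMC. All 3 pools were far above PBMC, by 9.22 ± 0.58 log2 units (SE; 598-fold, limma adjusted p = 1.11e-04). miR-1, which is made with miR-133a in muscle, was read by a mouse and a rat assay. The mouse assay gave 0.64, 3.04 and 2.16 against -7.30, and the rat assay 1.23, 3.63 and 3.01 against -6.66. Both differences were close to that of miR-133a, at 9.24 ± 0.88 and 9.29 ± 0.92 (adjusted p = 5.52e-04 and 5.88e-04), and pool 1 was the lowest in both. miR-133b, a further muscle form, was at 1.67, 3.25 and 1.94 and was not detected in PBMC, a difference of at least 14.11 log2 units. The 3 assays of the cardiac muscle list detected on all 4 arrays were thus higher, under each of the 8 scalings, with a median of 9.24, where 19.4% of all 144 such assays were called higher. The mean level of the 4 tested was 2.13 to 4.01 in the allogeneic pools, 1.27 to 1.71 in the syngeneic pools and -7.40 in PBMC. The other 4 assays of the list were not tested. miR-208 and miR-499, which lie in myosin genes, were each detected on 2 of 3 allogeneic arrays and not in PBMC, and miR-208b and miR-490 on none of the 7 arrays. In RNA of mixed cells, fewer cells of a type and less RNA per cell cannot be told apart.

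MicroRNAs of vessels and connective tissue were higher as well. miR-145, which keeps smooth muscle cells contractile, stood at 4.91, 5.65 and 5.43 against -2.77 in PBMC, a difference of 8.10 ± 0.63 (274-fold, adjusted p = 2.44e-04). Its neighbour miR-143 was at 1.26, 2.39 and 1.89 against -4.81 (6.65 ± 0.68, adjusted p = 6.61e-04). Both assays of the smooth muscle list were therefore higher in all 3 pools, with a median of 7.38, and were called under all 8 scalings. Over all 144 assays detected on all 4 arrays, 19.4% were called higher.

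miR-126 lies in an intron of the endothelial gene Egfl7 and both of its arms are on the card. miR-126-3p stood at 5.10, 5.15 and 4.37 against 0.08 (4.79 ± 0.46, 27.7-fold, adjusted p = 5.59e-04) and miR-126-5p at 2.15, 2.12 and 1.44 against -2.69 (4.59 ± 0.45, adjusted p = 5.77e-04). The arms rose alike, with pool 3 the lowest in both. The other members of the endothelial list, miR-100 (0.82 ± 0.54) and miR-10a (0.00 ± 0.42), did not pass. Thus 2 of 4 were higher, with a median of 2.70, beside 19.4% called higher over all 144 assays detected on all 4 arrays.

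In the fibroblast list, 2 of the 4 assays detected on all 4 arrays were higher, with a median of 1.60, beside 19.4% called higher over all 144. A further 2 were not detected in PBMC. miR-199a-3p, which is made from one transcript with miR-214, was at 2.50, 2.87 and 1.66 against -4.87 (7.21 ± 0.52, adjusted p = 2.01e-04). miR-214 was at 0.12, 0.41 and -1.0 and undetected in PBMC, which gives a rise of at least 11.67. miR-199a-5p, also undetected in PBMC, rose by at least 8.31, and miR-497 by 2.47 ± 0.43 (adjusted p = 0.00613; not called when scaled to MammU6). miR-152 (0.72 ± 0.41) and miR-195 (-0.07 ± 0.32) did not pass. The part that cardiac, vessel and connective tissue cells had in the other differences was not tested. Leaving their microRNAs and those of the Dlk1-Dio3 region, described next, out of the reference assays gave 27 falls in place of 76.

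**Figure D3:**
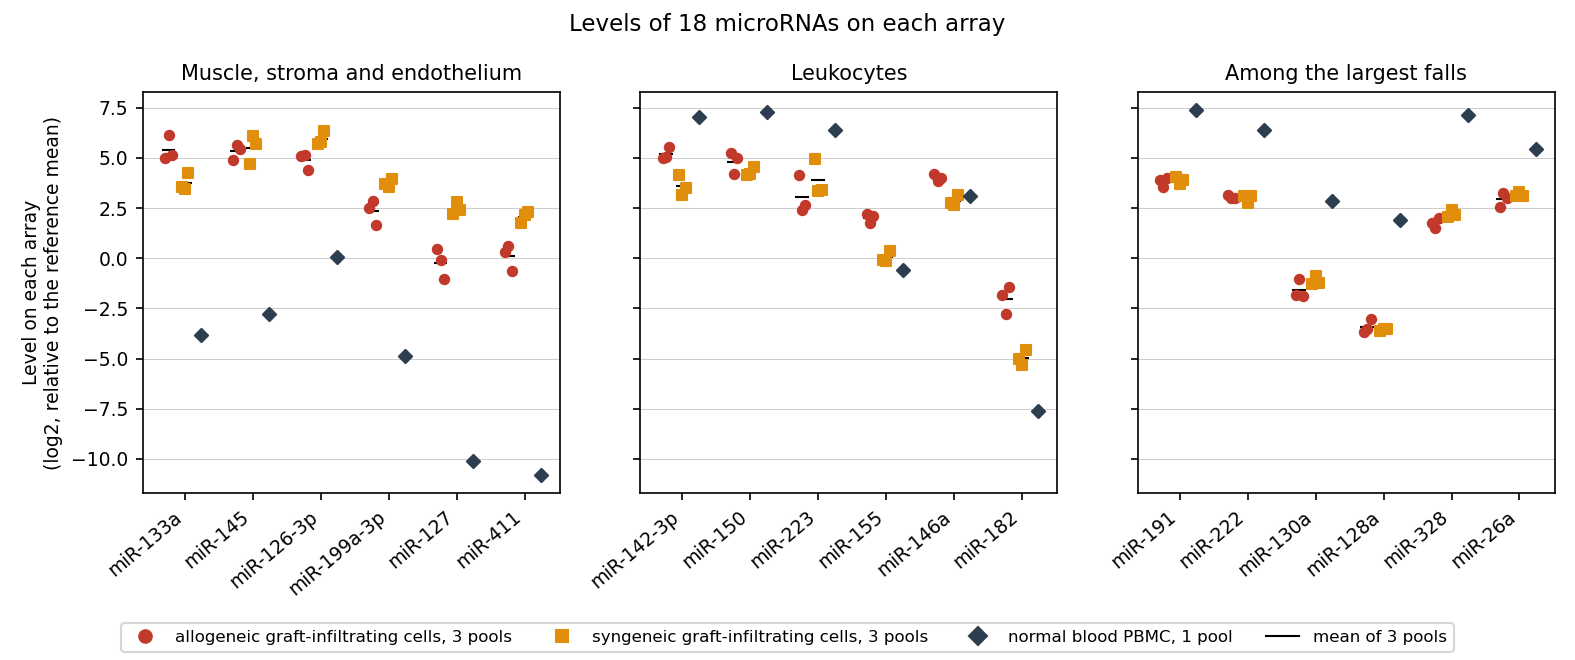
Level of 18 microRNAs (vertical axis, log2 relative to the reference mean) on each array, for 3 allogeneic GIL pools (red circles), 3 syngeneic GIL pools (orange squares) and 1 PBMC pool (dark diamonds), with short lines at the means of 3 pools. The 6 tissue microRNAs at left are higher in every GIL pool than in PBMC, and the 6 at right lower; among the leukocyte microRNAs, miR-155 and miR-182 are higher in the allogeneic pools than in both other groups.

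Most detected microRNAs of the Dlk1-Dio3 region were higher. This imprinted cluster on chromosome 12 is expressed from the maternal allele, widely in the embryo and in fewer tissues of the adult. Of 53 of its assays on the card, 15 were members. Of the 6 detected on all 4 arrays, 4 were called higher and 0 lower (median 4.74), beside 19.4% called higher over all 144 such assays. Another 6 were undetected in PBMC, and 3 were missed on an allogeneic array. miR-127 stood at 0.48, -0.11 and -1.02 in the allogeneic pools and -10.11 in PBMC, close to its detection limit (9.89 ± 0.62, adjusted p = 1.11e-04). miR-411 was at 0.33, 0.59 and -0.62 against -10.79, where its PBMC well, at Ct 33.97, was also close to the limit. Its rise (10.89 ± 0.55, adjusted p = 6.33e-05) was the largest among assays detected on all 4 arrays. Both were lowest in pool 3, as were most members of the cluster. miR-337-5p (6.43 ± 0.54) and miR-494 (3.05 ± 0.51) also rose. The 6 detected in all 3 allogeneic pools and not in PBMC had rises that are bounds: miR-379 (at least 11.61), miR-495 (10.22), miR-434-3p (9.28), miR-376c (8.56), miR-410 (8.45) and miR-376a (7.09). miR-544 (2.92 ± 0.71) and the mouse assay of miR-381 (2.11 ± 0.66) were detected on 2 of 3 allogeneic arrays. These were negative under quantile normalization (-1.66 and -2.08), and the miR-381 call was lost without allogeneic pool 2 (2.31, adjusted p = 0.0561) or syngeneic pool 1 or 3 (adjusted p = 0.062 and 0.0628). miR-376b (1.87 ± 1.38), miR-667 (0.73 ± 9.03) and the rat assay of miR-381 (-0.77 ± 1.94) did not pass. The wide error of miR-667 comes from its syngeneic values, which ran from -9.97 to 13.25. Among the assays of the region that were no members, 8 were detected in 2 allogeneic and 3 syngeneic pools and not in PBMC, and 21 on none of the 7 arrays.

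The markers of blood cells were lower in allogeneic GIL than in PBMC on this scale, by much smaller margins. Over all 144 assays detected on all 4 arrays, 44.4% were called lower and the median difference was -1.06. miR-142-3p, miR-150 and miR-223 were detected on all 7 arrays. miR-142-3p, the pan-leukocyte marker, was at 4.98, 5.05 and 5.55 in the allogeneic pools and at 7.04 in PBMC. All 3 pools were lower (log2 fold change -1.85 ± 0.48, adjusted p = 0.0226), as they were for 90 of the 144 assays. miR-142-5p was at -2.42, -1.69 and -1.01 against -0.05 (-1.65 ± 0.57, adjusted p = 0.05, just under the threshold). Without allogeneic pool 2 the miR-142-3p call was lost (-1.78, adjusted p = 0.0554), and the miR-142-5p call was lost without any one pool but allogeneic pool 3 (-1.30 to -1.66, adjusted p = 0.0545 to 0.0912). Neither assay of miR-142 was called under any of 6 other scalings, the scaling to miR-142 itself aside. In the authors' deposited table, which is scaled to snoRNA202, the relative quantity of miR-142-3p ran from 0.51 to 1.004 in the allogeneic pools with PBMC at 1.

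Resting lymphocyte microRNAs lay lower. Of the 7 detected on all 4 arrays 5 were called lower and 0 higher, beside 44.4% called lower over all 144 such assays, and their median was -1.86 where that of the 144 was -1.06. miR-150, which falls when T cells are activated, stood at 5.26, 4.18 and 4.97 against 7.27 in PBMC (-2.46 ± 0.49, 5.50-fold lower, adjusted p = 0.00922). miR-26a was at 2.57, 3.26 and 3.02 against 5.45 (-2.50 ± 0.36, adjusted p = 0.00294). miR-101a (-1.92), miR-29a (-1.86) and miR-26b (-1.53) were also called lower. miR-29c (-0.89 ± 0.33), miR-342-3p (-0.51 ± 0.46) and miR-342-5p (-2.51 ± 1.69, detected on 2 of 3 allogeneic arrays) did not pass. With snoRNA202 as the scale, none of the 8 on the list was called. miR-150 and miR-26a were each called under 4 of the 8 scalings and stayed below PBMC under all of them, by 0.71 to 2.74 and 0.75 to 2.78 log2 units. In the authors' deposited table the relative quantity of miR-150 was 0.407 to 0.531. Both miR-181 assays, a family that sets the sensitivity of T cell receptor signalling, were lower, at -2.09 for miR-181a (adjusted p = 0.00488) and -2.09 for miR-181c (adjusted p = 0.0193), and neither was called when scaled to snoRNA202.

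Of 4 myeloid microRNAs detected on all 4 arrays, 2 were called lower and 0 higher, near the 44.4% called lower over all 144 such assays. A further 1 was undetected in PBMC. miR-223, which restrains granulocyte production and activation, was at 4.16, 2.39 and 2.66 against 6.39 in PBMC (-3.32 ± 0.95, adjusted p = 0.0291), with pool 1 the highest. It was below PBMC under all 8 scalings but was called under 2 of them, and without allogeneic pool 2 the call was lost (-2.98, adjusted p = 0.0646). miR-147, which Toll-like receptor signals induce in macrophages, was at -2.62, -3.30 and -4.08 and undetected in PBMC, a rise of at least 8.48. miR-125a-5p was lower (-1.69 ± 0.43), while miR-125a-3p (1.42 ± 0.68) and miR-146b (1.35 ± 0.50) did not pass. The myeloid marker miR-511 was detected on none of the 7 arrays. Of the erythroid and platelet microRNAs, miR-451, which red cell precursors make, was at -2.39, -1.82 and -2.01 against -0.39 (-1.69 ± 0.48, adjusted p = 0.0287). miR-15b (-1.66) and miR-16 (-1.22) were lower as well, miR-363, detected on 1 of 3 allogeneic arrays, did not pass, and miR-486 was detected on none of the 7 arrays. All 3 detected on all 4 arrays were thus lower, beside the same 44.4%. However, miR-451, miR-15b and miR-16 were called under only 2, 1 and 1 of the 8 scalings. The miR-451 call was lost without allogeneic pool 1 (-1.53, adjusted p = 0.0558) or syngeneic pool 1 (adjusted p = 0.0523), and that of miR-16 without allogeneic pool 2 (-1.03, adjusted p = 0.0734) or any syngeneic pool (adjusted p = 0.0559 to 0.0819).

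MicroRNAs of activated T cells went both ways. Of the 9 detected on all 4 arrays, 3 were called higher, each under all 8 scalings, and 2 lower (median 0.92), beside 19.4% and 44.4% over all 144 such assays. A further 2, miR-183 and miR-214, were undetected in PBMC. miR-155, which activated lymphocytes and macrophages need for full cytokine responses, stood at 2.19, 1.73 and 2.12 against -0.58 in PBMC. The 3 pools lay close together, 2.59 ± 0.37 above PBMC (6.04-fold, adjusted p = 0.00267). In the authors' deposited table its relative quantity was 12.9 to 19.9. miR-182, which interleukin-2 induces in T helper cells, was at -1.84, -2.79 and -1.45 against -7.61 (5.59 ± 0.60, 48.0-fold, adjusted p = 7.9e-04). Its cluster neighbour miR-183 was at -3.40, -3.90 and -3.99 and undetected in PBMC, at least 8.06 log2 units higher. The third member of that cluster, miR-96, was detected on 2 of 3 allogeneic arrays and not in PBMC, and was not tested. miR-132, a target of the transcription factor CREB, was at 1.90, 0.92 and 0.95 against -0.82 (2.08 ± 0.47, adjusted p = 0.0144). miR-214, given above, is also on the fibroblast list.

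The other microRNAs of the list were not called higher. miR-146a, which NF-kB induces and which limits its signalling, was at 4.17, 3.86 and 3.99 against 3.09, and its difference of 0.92 ± 0.34 did not pass (adjusted p = 0.0616). miR-21 was at 4.75, 5.30 and 4.99 against 5.73 (-0.71 ± 0.33, adjusted p = 0.111). miR-31 was lower (-1.67 ± 0.51, adjusted p = 0.0346), although it was 0.076 higher when scaled to miR-142, and its call was lost without allogeneic pool 2 (-1.41, adjusted p = 0.0593) or 3 (-1.66, adjusted p = 0.0509) or syngeneic pool 2 or 3 (adjusted p = 0.0591 and 0.0628). miR-222 was at 3.16, 3.02 and 3.01 against 6.41 (-3.35 ± 0.30, 10.2-fold lower, adjusted p = 4.67e-04), and was called under 6 of 8 scalings. miR-221, which shares its seed and its transcript, was at 1.87, 1.61 and 0.91 against 1.72, and the 3 pools lay on both sides of PBMC (-0.26 ± 0.47, adjusted p = 0.653).

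Among single assays outside the lists, miR-685 was one of the 12 largest called rises. It was at 2.42, 2.51 and 2.58 in the allogeneic pools, 0.04, 0.74 and 0.35 in the syngeneic pools and -3.80 in PBMC. The rise over PBMC was 6.30 ± 0.36 (79.0-fold, adjusted p = 8.99e-05). The 3 groups did not overlap, which was so for other assays too, among them miR-182, miR-127 and miR-34b-3p. In 95.1% of the 144 assays detected on all 4 arrays the allogeneic pools lay on one side of PBMC. The rat assay of miR-224 was at -1.69, -1.99 and -3.02 against -8.08 (5.85 ± 0.60, adjusted p = 6.61e-04), called under all 8 scalings. The mouse assay of miR-224 was at -2.28, -2.19 and -5.03 against -5.33 and did not pass (2.16 ± 1.16, adjusted p = 0.157), so the assays of this microRNA disagreed. Without pool 3 the mouse assay was called higher too (3.09). miR-27b was at -0.06, 0.41 and 0.38 against -2.81 (3.05 ± 0.33, adjusted p = 8.24e-04). miR-27a, which has the same seed and lies in another cluster, was at -0.17, 0.07 and -0.02 against -0.59 (0.55 ± 0.30, adjusted p = 0.157). In the clusters of both, miR-23b was higher (1.65 ± 0.36) and miR-24, made from both, lower (-1.49 ± 0.36, above PBMC when scaled to miR-142 or by quantiles). miR-23a was undetermined on all 6 GIL arrays and at -0.77 in PBMC. miR-34b-3p, whose gene p53 activates, was at -1.20, -1.35 and -1.68 against -5.85 (4.44 ± 0.39, adjusted p = 4e-04). miR-204, detected at -0.21, 0.35 and -1.01 and not in PBMC, rose by at least 11.53. miR-124, a neuronal microRNA, was at -1.46, -1.33 and -1.03 and also undetected in PBMC (at least 10.55).

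**Figure D4:**
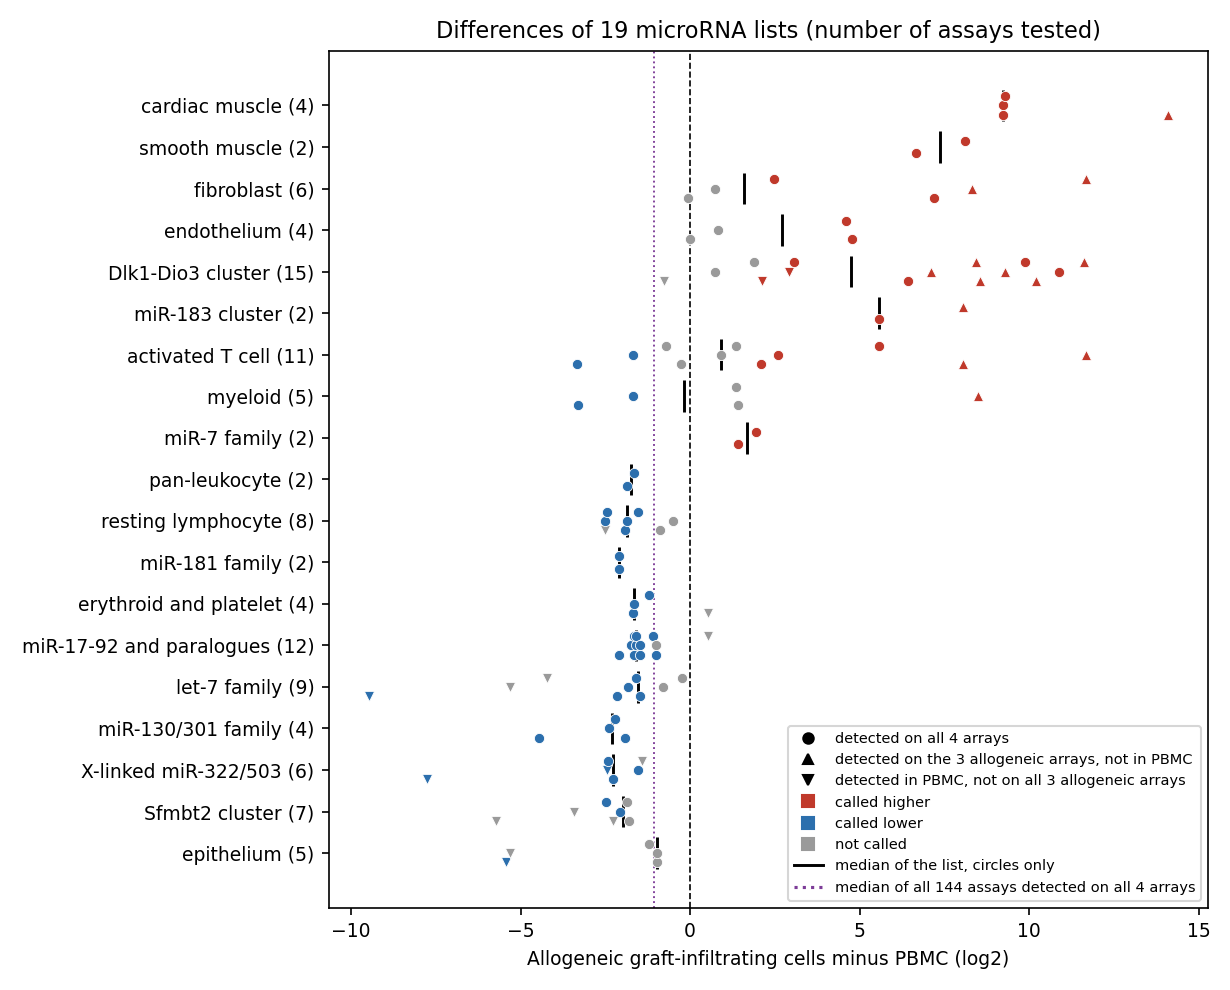
Difference between allogeneic GIL and PBMC (horizontal axis, log2) for the members tested of 19 microRNA lists; shapes give detection, colours the call, black bars the median of the circles of each list (assays detected on all 4 arrays) and the dotted line the median of all 144 such assays. The tissue and Dlk1-Dio3 lists lie to the right with medians of 1.60 to 9.24. Most leukocyte and family lists lie left of 0, with medians mostly left of the dotted line at -1.06 and as low as -2.30.

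The falls that depended least on scaling were those of 9 microRNAs, 5 of them undetected in the allogeneic pools. The 4 assays detected on all 4 arrays and called lower under all 8 scalings were miR-328, miR-128a, miR-130a and miR-191. miR-328 was at 1.73, 1.48 and 2.00 against 7.15 in PBMC (-5.41 ± 0.34, 42.6-fold lower, adjusted p = 1.11e-04), and the smallest fall over the scalings was -3.66. In the authors' deposited table its relative quantity was 0.05 to 0.078. miR-128a was at -3.70, -3.55 and -3.03 against 1.92 (-5.35 ± 0.36, adjusted p = 1.41e-04). miR-130a was at -1.84, -1.05 and -1.89 against 2.85 (-4.45 ± 0.45, adjusted p = 6.43e-04). miR-191 was at 3.90, 3.54 and 3.97 against 7.37 (-3.57 ± 0.33, adjusted p = 4.96e-04). The syngeneic pools lay at about the same levels in all 4, for example 2.05, 2.38 and 2.17 for miR-328 and 4.05, 3.69 and 3.89 for miR-191. All GIL pools thus lay below the single PBMC pool, and no second PBMC array can show how these levels vary in blood. Of the 12 largest falls, the other 8 were those of miR-222, miR-223, miR-193b (-3.12), miR-186 (-2.86), miR-652 (-2.67), miR-185 (-2.58), miR-872 (-2.56) and miR-26a. The miR-652 call was lost without allogeneic pool 2 (-2.84, adjusted p = 0.0707) or any syngeneic pool (adjusted p = 0.0631 to 0.0711), and without allogeneic pool 3 the difference was -2.04.

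Some microRNAs plainly detected in PBMC were undetected in allogeneic GIL. miR-98, a let-7 relative, was at 0.17 in PBMC and undetermined on all 6 GIL arrays, at least 713-fold lower in the allogeneic pools. miR-23a (at least 371-fold) had the same pattern. miR-339-3p was at 1.33 in PBMC, undetected in the allogeneic pools and seen in 2 of 3 syngeneic pools (at least 1596-fold lower), and its rat assay, at -0.51 in PBMC, was seen in 1 of 3. miR-503 and miR-672 were undetected in the allogeneic pools but present in all 3 syngeneic pools. miR-503 stood at -1.53 in PBMC and at -4.57, -5.01 and -4.91 in the syngeneic pools, and was at least 219-fold lower in the allogeneic pools. miR-672 was at -2.92 in PBMC and at -4.06, -3.10 and -3.94 in the syngeneic pools (at least 83.7-fold lower). miR-425, at 4.13 in PBMC, was at 1.15 in allogeneic pool 1 and undetected in the others, and did not pass (-9.43 ± 4.02, adjusted p = 0.0909). Because pool 3 was shallow, its limit lay at -7.05 where those of pools 1 and 2 lay at -10.87 and -10.00. Without pool 3 the log2 bounds were larger, at -10.61 for miR-98, -9.66 for miR-23a, -11.77 for miR-339-3p, -8.90 for miR-503 and -7.52 for miR-672. Without pool 2 the calls of both miR-339-3p assays were lost, and without pool 1 that of the rat assay (-10.29 for the mouse assay without pool 2, -8.45 and -8.01 for the rat assay without pools 2 and 1).

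The proliferation-linked families are set here beside the 35.8% of all members, and 44.4% of the 144 assays detected on all 4 arrays, that were called lower. Of miR-17-92 and its paralogues, which promote the growth of lymphocytes, 12 were tested and 11 detected on all 4 arrays. Of those 11, 10 were lower and 0 higher (median -1.59, where that of the 144 was -1.06). miR-92a was at 3.23, 2.65 and 3.45 against 5.21 (-2.10 ± 0.39, adjusted p = 0.00757) and miR-17 at 4.74, 4.34 and 4.95 against 6.43 (-1.75 ± 0.37, adjusted p = 0.0113). None of the 10 was called under all 8 scalings, and the median of the 12 ran from -1.81 to 0.22. The let-7 family, which restrains proliferation, had 4 of 6 lower and 0 higher among those detected on all 4 arrays (median -1.54). Its other 3 were members through PBMC alone, a selection that favours falls, and of these miR-98 is given above as a bound. let-7i was at 1.77, 2.05 and 1.97 against 4.09 (-2.15 ± 0.30, adjusted p = 0.00251) and let-7g at 0.16, 0.12 and 0.43 against 2.08 (-1.84 ± 0.31, adjusted p = 0.00579). let-7b (-0.78 ± 0.50) and let-7c (-0.25 ± 0.48) did not pass. let-7a and let-7f were missed in pool 3 alone. All 4 of the miR-130 and miR-301 family, each detected on all 4 arrays, were lower (median -2.30): miR-130a, miR-130b (-2.40), miR-301b (-2.20) and miR-301a (-1.93). In the miR-29 family 2 of 3 were lower (miR-29b, -1.88, and miR-29a), and in the miR-30 family 2 of 5 (miR-30b, -1.30, and miR-30e, -0.95), a share near that of all members. Both miR-30 falls turned into rises when scaled to snoRNA202 (0.067 and 0.41). Some of these calls rested on single pools. Without allogeneic pool 2 those of miR-19a (adjusted p = 0.0507), miR-20b (-1.35), miR-93 (-1.51), miR-106b (-1.05), miR-25 (-0.85) and miR-30e (-1.02) were lost. Without allogeneic pool 1 those of miR-20b, miR-93, miR-106b, miR-25, miR-30e and let-7e (-1.36) were lost, and without allogeneic pool 3 that of miR-25 (-1.07). Leaving out a syngeneic pool, which left the differences as they were, ended the calls of miR-25 and miR-30e (any of the 3), miR-106b (2 or 3), miR-20b and let-7d (3) and let-7e (1), with adjusted p from 0.0507 to 0.10.

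Some members that share a seed lay on opposite sides of PBMC, and others on the same side. Among the assays matched in RefSeq, the seed of miR-17, AAAGUGC, was held by 6, all lower. Under the seed CCCUGAG, miR-125b-5p was at 1.86, 2.66 and 2.00 against 0.24 (1.93 ± 0.43, adjusted p = 0.0137). miR-125a-5p was at -0.70, -0.95 and -1.62 against 0.60 (-1.69 ± 0.43, adjusted p = 0.0203), and the rat assay of miR-351 at -6.37, -5.97 and -6.01 against -3.69 (-2.42 ± 0.31, adjusted p = 0.00171). miR-125b-5p thus rose while the others of its seed fell; the fall of miR-125a-5p turned into a rise of 0.061 when scaled to miR-142. Under UCCCUUU, miR-204 rose from below detection, while miR-211 was at -2.27, -1.87 and -1.01 against 0.22 (-1.93 ± 0.64, adjusted p = 0.0439, called under 1 of 8 scalings). In the miR-15 and miR-16 seed, AGCAGCA, miR-497 rose, miR-322 (-2.28), miR-15b and miR-16 fell, and miR-15a (-0.72) and miR-195 did not pass. miR-16 was above PBMC under 3 other scalings, by 0.14 to 0.55. miR-7a, at -3.85, -3.97 and -3.70 against -5.78 (1.94 ± 0.45, adjusted p = 0.0157), and miR-7b, at -5.16, -5.32 and -5.03 against -6.59 (1.42 ± 0.28, adjusted p = 0.00928), were both higher. Each was called under 6 of 8 scalings, and miR-7b was below PBMC under quantile normalization (-0.71).

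The remaining lists were smaller or mixed. In the X-linked miR-322 and miR-503 cluster the 3 assays detected on all 4 arrays were lower, miR-351, miR-322 and miR-450a-5p (-1.54), beside 44.4% over all 144. The other 3 were members through PBMC alone, a selection that favours falls. Of these miR-503 was undetected in the allogeneic pools, miR-542-5p (-2.46) was called lower, and miR-542-3p (-1.42 ± 1.12) did not pass. miR-450a-5p turned to 0.21 when scaled to miR-142. A mouse assay of miR-351 was detected on 2 syngeneic arrays, no allogeneic array and not in PBMC. Of 4 Sfmbt2 cluster assays detected on all 4 arrays, miR-467a (-2.49) and miR-467c (-2.07) were lower, beside the same 44.4%. Of the 7 tested, 5 did not pass. The miR-467c call was lost without allogeneic pool 2 (-2.08, adjusted p = 0.0747) or any syngeneic pool (adjusted p = 0.0523 to 0.0662). None of 6 in the Clcn5 intron cluster was called, among them the rat assay of miR-532-5p, at -0.97 in PBMC and undetected in the allogeneic pools (-8.34 ± 3.63). miR-210, which hypoxia induces, was not called, at 3.83, 3.54 and 2.92 against 3.63 (-0.20 ± 0.49). Among the miR-99 and miR-100 assays, miR-100, miR-99a (0.56 ± 0.50) and miR-99b (-1.04 ± 0.41) did not pass. In the miR-34 family, miR-449a (2.71 ± 1.76) did not pass, and miR-34a, missed in pool 3, stood at -0.46 ± 2.48 and, without that pool, at 1.59, where it was called higher. Of 5 epithelial markers, the 3 detected on all 4 arrays were not called. miR-200b and miR-200a were members through PBMC alone, a selection that favours falls. miR-200b did not pass, and miR-200a, undetected in all GIL pools, was at least 42.8-fold lower. The miR-200a call was lost without allogeneic pool 2 (-5.07), and without pool 3 its bound was -6.55. Of other organs' markers, miR-9 (-1.32 ± 0.80) and miR-375 (undetected in all GIL pools) did not pass, and the liver microRNA miR-122 was detected on none of the 7 arrays.

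The allogeneic and syngeneic pools were also compared with each other. All 3 syngeneic arrays were run on a day on which no allogeneic array was run, so group and run day cannot be told apart here either. Over the same 212 assays, 20 were higher and 31 lower in allogeneic than in syngeneic GIL (9.43% and 14.6%, 24.1% called in all). Scaled to MammU6 the split was 21 and 4, to snoRNA135 with snoRNA202 17 and 3, to snoRNA202 30 and 4, to the reference median 30 and 25, and to miR-142 2 and 70. Both comparisons use the same 3 allogeneic arrays, and both GIL groups were set against the same PBMC array, so their values are given side by side. miR-155 was -0.09, -0.16 and 0.35 in the syngeneic pools, 0.62 above PBMC there, and 1.98 higher in allogeneic than in syngeneic GIL (adjusted p = 0.00999). miR-182 was at -5.02, -5.32 and -4.58, and was 2.95 higher in allogeneic GIL (adjusted p = 0.0102), under all 8 scalings. The activated T cell list as a whole had 3 of 11 higher (miR-155, miR-182 and miR-146a) and 3 lower than in syngeneic GIL (miR-132, -1.25, adjusted p = 0.0457; miR-31, -2.03, adjusted p = 0.0126; and miR-214), with a median of 0.087. The miR-132 call was lost without any one pool but allogeneic pool 1 (-1.08 to -1.29, adjusted p = 0.0865 to 0.14), and that of miR-31 without syngeneic pool 2 or 3 (-1.94, adjusted p = 0.0585 and 0.0565). miR-142-3p was at 4.14, 3.16 and 3.49, 1.60 lower than in allogeneic GIL (adjusted p = 0.0232), and miR-146a was 1.16 higher in allogeneic GIL (adjusted p = 0.0207; 0.14 lower when scaled to miR-142). miR-150 differed by 0.51 (adjusted p = 0.317). Between the grafts the miR-155 call was kept without any one pool. That of miR-182 was lost without syngeneic pool 2 (2.78, adjusted p = 0.0501), that of miR-142-3p without allogeneic pool 2 or syngeneic pool 2 or 3 (1.38 to 1.67, adjusted p = 0.0543 to 0.0852), and that of miR-146a without allogeneic pool 1 or syngeneic pool 1 or 2 (1.05 to 1.11, adjusted p = 0.0577 to 0.0801).

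The tissue microRNAs were high in both kinds of GIL. miR-133a was at 3.53, 3.47 and 4.23 in the syngeneic pools and was 1.67 higher in allogeneic GIL (adjusted p = 0.0338, called under 4 of 8 scalings). miR-145 (-0.15, adjusted p = 0.80) and miR-126-3p (-1.07, adjusted p = 0.0642) were not called between the grafts. miR-214 was at 3.06, 3.85 and 2.96 in the syngeneic pools, 3.45 above the allogeneic mean (adjusted p = 0.0102), and this was called under all 8 scalings. miR-199a-3p was lower in allogeneic GIL by 1.38 (log2 fold change -1.38, adjusted p = 0.0467). Of the 15 Dlk1-Dio3 members, 10 were lower and 0 higher in allogeneic than in syngeneic GIL (median -2.34). Over all 212 assays 14.6% were called lower. Each of the 10 was called under only 5 of the 8 scalings. miR-127, for example, was at 2.22, 2.81 and 2.4 in the syngeneic pools (-2.69, adjusted p = 0.0107). Beside 9.43% called higher over all 212 assays, 4 of 12 in the miR-17-92 list were higher in allogeneic GIL. They were miR-18a (by 2.28), miR-20b (1.44) and the neighbours miR-106b (0.99) and miR-25 (0.98). They were called under 7, 7, 5 and 5 of the 8 scalings, in this order. The last pair was lower when scaled to miR-142 (-0.31 and -0.32). miR-211 was undetected in the syngeneic pools and at least 8.10 log2 units higher in the allogeneic pools, which is a bound. miR-351 was at -1.63, -1.75 and -1.80 in the syngeneic pools, so that allogeneic GIL lay below and syngeneic GIL above PBMC (-4.39 between the grafts, adjusted p = 3.98e-04, called under all 8 scalings). The calls of miR-214 and miR-351 were kept without any one pool. Those of miR-127 (-2.53) and miR-18a (2.09) were lost without syngeneic pool 2 (adjusted p = 0.0501 for both). The same held in the Dlk1-Dio3 region for miR-411, miR-337-5p, miR-379, miR-495, miR-434-3p, miR-376c and miR-494 (adjusted p = 0.0501 to 0.0698). The miR-494 call was also lost without syngeneic pool 1 or 3, and those of miR-411 and miR-376c without syngeneic pool 3. The call of miR-133a was lost without allogeneic pool 2 or any syngeneic pool (1.32 to 1.92, adjusted p = 0.0594 to 0.117), and that of miR-199a-3p without allogeneic pool 1 or any syngeneic pool (-1.27 to -1.48, adjusted p = 0.0851 to 0.145). The call of miR-20b was lost without allogeneic pool 1 or syngeneic pool 2 or 3 (adjusted p = 0.0554 to 0.0913). That of miR-106b was lost without any one pool but syngeneic pool 1 (0.87 to 1.03), and that of miR-25 without any one pool but allogeneic pool 2 (0.87 to 1.06). Without syngeneic pool 2 the calls between the grafts numbered 7 higher and 5 lower, and without syngeneic pool 3 13 and 17.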

How the data were processed

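Of the 14 arrays in the series, the 7 of GIL and PBMC were used (3 allogeneic, 3 syngeneic and 1 PBMC). Per the labels' protocols, a mirVana kit served for isolating total RNA, Megaplex primer pools for reverse transcription and preamplification, and a 7900HT instrument for the PCR. Per the file headers, Ct values were exported by the authors with SDS 2.4. The deposited delta Ct, on a log2 scale, equalled the Ct minus that of snoRNA202 with undetermined wells at 40, and the relative quantity they deposited is a ratio with PBMC at 1 (100% of 1443 values of at least 0.1 matched within 1%).

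Levels were recomputed from Ct as given in the report. Assays were tested when detected on all allogeneic arrays or in PBMC. Group means were fitted over 7 arrays by lmFit and eBayes of limma 3.58.1 (R 4.3.3, residual df 4, two-sided), with Benjamini-Hochberg adjustment over 212 assays and calls at an adjusted p under 0.05. The fit was tested on simulated data. There the PBMC array varied like the GIL arrays and every well was detected, so neither the spread of PBMC nor undetected wells were tested. Where a group was undetected, the SE and p hold no variation of the microRNA in it. Precision is limited by how few arrays there are. The labels do not say whether the 3 pools of a group came from separate animals, so p-values measure the spread between pools, which may be technical.

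Described were the 12 largest called rises and 12 largest called falls among assays detected on all 4 arrays, the 8 largest differences each way among the others, 28 microRNA lists, and the controls. miR-211 was added after its values were seen. The members and lists were chosen with earlier results of these data known. Other scalings, detection limits, tests and left-out arrays were tried.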

Additional observations from a re-analysis of the deposited data

Results flagged for a closer look

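The difference from PBMC differed between allogeneic and syngeneic GIL, by a limma contrast of the groups in which PBMC cancels, and lay on opposite sides of PBMC in the pools of each group, for 2 assays. miR-7b stood 1.42 log2 units above PBMC in allogeneic GIL and 0.82 below it in syngeneic GIL (log2 difference -0.82), a difference between the grafts of 2.23 (adjusted p = 0.00347). The rat assay of miR-351 stood 2.42 below PBMC in allogeneic GIL (log2 difference -2.42) and 1.96 above it in syngeneic GIL, a difference of -4.39 (adjusted p = 3.98e-04).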

How the results depend on the processing

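Other settings were a detection limit of Ct 32 or 38, other detection filters, leaving out assays marked by the instrument software or each pool, the run day as a random block, a trend in the variance and the scalings of the report; those to miR-142 and without tissue lists were chosen after seeing the data. For the contrast with PBMC over the assays described, 2647 values kept their direction and side of the threshold, 401 lost the call, 87 gained one and 40 changed sign; between the grafts these were 2573, 237, 82 and 5.

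The 47 rises over PBMC became 30 over assays detected on all 4 arrays only (fewer assays tested), and 45 to 62 without each pool in turn. The 76 falls became 13 scaled to snoRNA135 with snoRNA202, 9 scaled to snoRNA202, 46 scaled to the reference median, 10 scaled to miR-142, 27 without tissue lists in the reference, 29 on the 4 arrays alone (2 residual df), 10 in the authors' deposited relative quantities, and 55 to 86 without each pool. Between the grafts, the 20 rises became 2 scaled to miR-142 and 8 with a replicate block. The 31 falls became 4 scaled to MammU6, 3 to snoRNA135 with snoRNA202, 4 to snoRNA202, 70 to miR-142 and 4 with a replicate block. Without each pool these ranged over 7 to 20 and 5 to 42, the lowest without syngeneic pool 2. The cause of these changes was not tested.

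Values that changed sign against PBMC were the following. In the deposited relative quantities and scaled to snoRNA202, miR-30e was 0.41, miR-25 0.35, miR-106b 0.27, miR-16 0.14 and miR-30b 0.067. Scaled to snoRNA135 with snoRNA202, miR-30e was 0.038. Under quantile normalization miR-544 was -1.66, miR-381 -2.08, miR-7b -0.71, miR-16 0.55, miR-19b 0.55, miR-24 0.30 and miR-142-3p 0.10. Scaled to miR-142, miR-30e was 0.80, miR-25 0.73, miR-106b 0.66, miR-16 0.53, miR-30b 0.46, miR-19b 0.28, miR-20b 0.28, let-7e 0.27, miR-24 0.26, miR-26b 0.22, miR-450a-5p 0.21, let-7d 0.17, miR-19a 0.16, miR-93 0.15, miR-20a 0.11, miR-142-5p 0.10, miR-15b 0.092, miR-106a 0.089, miR-31 0.076, miR-451 0.065 and miR-125a-5p 0.061. miR-34a ranged from -1.56 to 1.59 without each pool, the highest without allogeneic pool 3, where it was undetected. Between the grafts, scaled to miR-142, miR-128a was -1.16, miR-146a -0.14, miR-30c -1.25, miR-25 -0.32 and miR-106b -0.31.

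For the contrast with PBMC, no paired analysis was possible because the groups share fewer than 2 replicate numbers. Whether the numbers pair the samples between the grafts cannot be decided from 3 pools in a group. Deviations of same-numbered pools correlated at 0.20, 0.24 and -0.16 over 152 assays, and 4 of 6 arrays correlated best with their own number. The shallow allogeneic pool 3 limits what can be said of weakly detected assays, and the single PBMC array leaves the spread of blood samples unmeasured.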
